A study of Rattus norvegicus with 15 samples.

Results

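The genes that make, package, recover and break down dopamine were examined in the ventral tegmental area, the midbrain region whose dopamine neurons project to the nucleus accumbens and cortex. They were Th, Ddc, Gch1, Pts, Qdpr, Slc6a3, Slc18a2, Maoa and Maob, a group of genes picked with earlier results of these data known. Every probe set that the array annotation named with exactly 1 of these 9 symbols was taken, whatever its values. That gave 14 of the 31099 probe sets on the array, and 9 of 14217 genes named by 1 symbol. Ddc, Gch1 and Slc6a3 had 2 probe sets each, Slc18a2 had 3, and the other 5 genes had 1. All 14 passed the filter on dim probe sets, a mean log2 value of at least 6.94 over all arrays.

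RNA was hybridised to Affymetrix rat arrays, 1 array per animal. The 7 ethanol rats had ethanol treatment per the labels, and the 8 water rats were age-matched controls. The series title names alcohol-preferring (P) rats, a line bred for high voluntary alcohol intake, and loss-of-control drinking, so all animals of both groups are taken to be of that line, while the design text mentions rats selected for either high or low intake and the labels do not separate such lines. The labels used here state no sex, age in weeks, litter or time between the last drink and death, and ethanol animal 3 was not analysed here.

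Dopamine is made from tyrosine. Tyrosine hydroxylase (Th) makes L-DOPA in the rate-limiting step, with tetrahydrobiopterin as its cofactor, and aromatic amino acid decarboxylase (Ddc) turns L-DOPA into dopamine. GTP cyclohydrolase (Gch1) starts the synthesis of tetrahydrobiopterin, 6-pyruvoyltetrahydropterin synthase (Pts) continues it, and dihydropteridine reductase (Qdpr) regenerates the cofactor after use. The vesicular monoamine transporter (Slc18a2) loads dopamine into vesicles, the dopamine transporter (Slc6a3) returns it from the extracellular space, and the monoamine oxidases (Maoa, Maob) break it down. Th and Slc6a3 mark dopamine neurons in this region, whereas Ddc, Gch1, Slc18a2 and Maoa also serve other monoamine neurons, Maob is abundant in serotonin neurons and astrocytes, and Qdpr and Pts are active in many cell types.

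RefSeq promoter entries of the GRCr8 assembly were found for 9 of the 9 genes, 11 entries in all because Ddc has 3 start sites. Those of 4 genes are printed here because Th and Slc18a2 share a regulatory word, Slc6a3 varied with them among rats without it, and Qdpr varied apart from them. Each runs 5′ to 3′ over the 250 bases before the annotated start, in the direction of the gene. Capitals mark TGACGTCA, the cyclic AMP response element, and the GC box GGGCGG on either strand. Th lies at chr1:207508219-207508468 on the minus strand, Slc18a2 at chr1:268399771-268400020 on the plus strand, Slc6a3 at chr1:31578963-31579212 on the minus strand and Qdpr at chr14:69882526-69882775 on the plus strand.
Th promoter: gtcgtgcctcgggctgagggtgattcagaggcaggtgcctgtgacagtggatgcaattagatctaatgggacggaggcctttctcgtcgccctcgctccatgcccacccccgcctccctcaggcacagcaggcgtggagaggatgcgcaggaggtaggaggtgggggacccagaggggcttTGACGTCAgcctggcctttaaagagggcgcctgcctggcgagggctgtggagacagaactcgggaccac
Slc18a2 promoter: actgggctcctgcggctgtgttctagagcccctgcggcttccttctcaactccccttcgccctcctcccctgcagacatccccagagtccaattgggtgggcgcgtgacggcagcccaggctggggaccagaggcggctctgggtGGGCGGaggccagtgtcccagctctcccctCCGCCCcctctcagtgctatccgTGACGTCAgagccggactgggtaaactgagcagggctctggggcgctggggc
Slc6a3 promoter: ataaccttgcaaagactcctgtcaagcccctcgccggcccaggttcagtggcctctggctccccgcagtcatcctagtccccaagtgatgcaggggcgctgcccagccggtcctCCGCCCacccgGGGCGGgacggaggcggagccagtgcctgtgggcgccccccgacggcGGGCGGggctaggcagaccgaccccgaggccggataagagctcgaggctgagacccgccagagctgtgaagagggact
Qdpr promoter: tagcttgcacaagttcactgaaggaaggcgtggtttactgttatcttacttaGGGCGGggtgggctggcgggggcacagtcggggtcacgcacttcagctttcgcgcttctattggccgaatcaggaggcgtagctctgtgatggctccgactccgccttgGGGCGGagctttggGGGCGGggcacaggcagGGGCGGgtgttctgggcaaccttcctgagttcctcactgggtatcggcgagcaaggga

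The cyclic AMP response element TGACGTCA, which reads the same on both strands, stood in the windows of Th and Slc18a2 and in none of the other 7 genes' windows. Its first base lay 69 bases before the start of Th and 52 bases before that of Slc18a2. Of 33469 RefSeq promoter windows of this length, 1.59% held it. The GC box was present in Gch1, Qdpr, Slc6a3, Slc18a2, Maoa and Maob, against 30.5% of all windows, and 4 copies stood in Qdpr and 4 in Maoa. AAAGGTCA, the element that Nr4a2 and related receptors bind, was found in 1 of the 3 Ddc windows and in 1.24% of all windows. TATAAA was found in the same Ddc window and in 12.9% of all windows, and its match overlapped that of AAAGGTCA by 3 bases. The reversed CCAAT box ATTGG stood in Ddc, Gch1, Qdpr, Slc18a2 and Maob and in 34.0% of all windows. TAATCC (bicoid-type) and TGTTTAC (forkhead) were in none of the 11 windows, and in 6.34% and 3.21% of all. A match of letters is a description of the window only.

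None of the 14 probe sets passed the test between ethanol and water rats. The test was limma's moderated test on the deposited log2 values, with Benjamini-Hochberg adjustment over 18625 probe sets and a threshold of 0.05, at which 173 probe sets, or 0.929%, were called (0.387% higher and 0.542% lower in ethanol rats). The adjusted p of the 14 ran from 0.0680 for Qdpr to 0.968 for Pts. At an unadjusted p below 0.05 there were 3 of 14, Qdpr, Maob and 1 of the Gch1 probe sets, against 12.1% of all kept probe sets. The mean was higher in ethanol rats for 13 of the 14, against 53.3% of all kept probe sets, and the median difference was 0.20 log2 units against 0.0062 over all. These 14 are not separate observations, since probe sets of 1 gene measure the same transcript and several genes moved together from rat to rat, as described below. The ethanol and water values overlapped in 14 of 14 probe sets. This is near the share over all kept probe sets, of which 0.623% had groups that did not overlap.

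**Figure D1:**
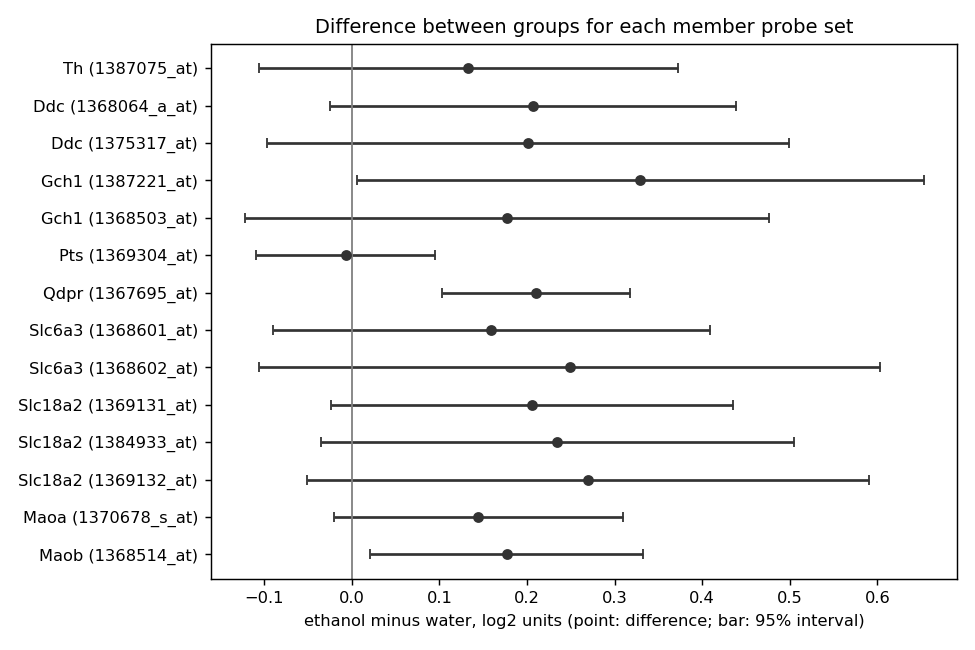
Difference between ethanol and water rats for each of the 14 probe sets (x axis, log2 units; points, ethanol mean minus water mean; bars, 95% interval from limma). The points for 13 of 14 probe sets lie above 0, and the intervals of 3, Gch1 (1387221_at), Qdpr and Maob, do not reach 0.

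Of the synthesis enzymes, Th was measured by 1 probe set. Its log2 values ran from 14.72 to 15.26 with a median of 14.91 in ethanol rats, and from 14.44 to 15.10 with a median of 14.88 in water rats. The group means were 14.94 ± 0.22 (SD, n = 7) and 14.80 ± 0.26 (SD, n = 8). Ethanol rats 1 and 7 were the highest animals of the study and water rats 7 and 8 the lowest, and 5 of the 7 ethanol values lay inside the water range. The difference was 0.13 log2 units (SE 0.11, 95% interval -0.11 to 0.37, limma adjusted p = 0.667), so a 1.29-fold higher level and a slightly lower one are both inside the interval. It was 0.08 without ethanol rat 1 and 0.08 without water rat 8. The highest value in the table was 16.35, so Th sits near the top of the scale, where array values compress differences. On their brightest probe sets Ddc, Qdpr, Slc18a2 and Slc6a3 were bright too, at level percentiles from 99.1 to 99.7.

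Ddc, the decarboxylase, ran from 13.58 to 14.15 (median 13.90) in ethanol rats and from 13.31 to 13.99 (median 13.65) in water rats on its brighter probe set (1368064_a_at). The difference was 0.21 (SE 0.11, 95% interval -0.02 to 0.44, limma adjusted p = 0.469). A second Ddc probe set (1375317_at) differed by 0.20 (SE 0.14, adjusted p = 0.597), and both put water rats 7 and 8 lowest. Without water rat 8 the second differed by 0.13.

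Among the 3 cofactor genes, Gch1 had the largest difference of any member. On probe set 1387221_at its values ran from 10.86 to 11.57 (median 11.09) in ethanol rats and from 10.13 to 11.25 (median 10.96) in water rats. All 7 ethanol rats lay above the water mean, but 5 of them lay within the water range, which water rat 7 (10.13) and water rat 8 (10.39) extended downwards. The difference was 0.33 (SE 0.15, 95% interval 0.0058 to 0.65, limma adjusted p = 0.405), or 1.26-fold. The other Gch1 probe set (1368503_at) was the dimmest of the members, with means of 7.93 in ethanol and 7.75 in water rats. It differed by 0.18 (SE 0.14, adjusted p = 0.643), by 0.10 without ethanol rat 1 and by 0.11 without water rat 7.

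Qdpr, which recycles the cofactor, came nearest to the threshold. Its values in ethanol rats 1, 2, 4, 5, 6, 7 and 8 were 14.10, 14.24, 14.11, 14.06, 14.05, 14.10 and 14.30. In water rats 1 to 8 they were 13.93, 13.88, 13.90, 13.82, 14.06, 13.87, 14.09 and 13.84. Apart from water rats 5 and 7 every water rat lay below every ethanol rat, and 2 of the 7 ethanol rats lay within the water range. The means were 14.14 ± 0.09 (SD, n = 7) and 13.92 ± 0.10 (SD, n = 8). The difference was 0.21 (SE 0.05, 95% interval 0.10 to 0.32), or 1.16-fold, with an unadjusted p of 7.09e-04 in limma, the 194th smallest of 18625, and an adjusted p of 0.0680. An exact two-sided permutation test over the 6435 ways of dividing the arrays gave p = 0.00233 for this single value. The same permutation test gave p = 0.0455 for Maob, 0.0761 for Gch1 (1387221_at) and at least 0.102 for every other member probe set. The limma call of Qdpr was made when water rat 5 (difference 0.23, adjusted p = 0.0413) or water rat 7 (0.23, adjusted p = 0.0344) was left out, and in none of the other 13 fits that left out 1 array.

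Pts, the enzyme between Gch1 and the finished cofactor, had a difference of -0.0070 (SE 0.05, 95% interval -0.11 to 0.10, limma adjusted p = 0.968). Its values ran from 9.77 to 9.95 (median 9.87) in ethanol rats and from 9.69 to 10.06 (median 9.89) in water rats, so the whole ethanol range lay inside the water range. The 95% interval of Pts ended at 1.07-fold and that of Qdpr began at 1.07-fold. These intervals are not adjusted for the number of probe sets, and Qdpr was not called. Pts and Qdpr were not tested against each other.

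Slc18a2, which fills the vesicles, was measured by 3 probe sets with differences of 0.21 (SE 0.11), 0.23 (SE 0.13) and 0.27 (SE 0.15) and limma adjusted p from 0.469 to 0.494. On the brightest of them (1369131_at) the values ran from 14.21 to 14.66 (median 14.33) in ethanol rats and from 13.76 to 14.57 (median 14.23) in water rats. Slc6a3, the reuptake transporter, ran from 14.31 to 15.01 (median 14.65) in ethanol rats and from 14.15 to 14.83 (median 14.58) in water rats on probe set 1368601_at, a difference of 0.16 (SE 0.12, adjusted p = 0.617). Its other probe set (1368602_at) differed by 0.25 (SE 0.17, adjusted p = 0.581). Without ethanol rat 7 the first differed by 0.10, and without water rat 2 the other differed by 0.16. For both transporters the lowest 2 water rats on the brightest probe set were again 7 and 8. On Slc6a3 1368602_at (10.14) and Slc18a2 1369132_at (11.10) water rat 2 was the lowest. In bulk tissue, fewer dopamine neurons in a sample and less transcript per neuron cannot be told apart.

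Of the breakdown enzymes, Maob ran from 11.40 to 11.81 (median 11.66) in ethanol rats and from 11.24 to 11.66 (median 11.43) in water rats. In 6 of 7 ethanol rats it lay above the water mean, and 3 of the 7 lay within the water range. The difference was 0.18 (SE 0.07, 95% interval 0.02 to 0.33, unadjusted p = 0.0288, limma adjusted p = 0.338). Maoa ran from 12.36 to 12.66 (median 12.51) in ethanol rats and from 11.99 to 12.61 (median 12.40) in water rats, a difference of 0.14 (SE 0.08, 95% interval -0.02 to 0.31, adjusted p = 0.478), or 0.09 without water rat 7. The suffix of the Maoa probe set (1370678_s_at) marks probes that can match more than 1 transcript, so its value may not be of Maoa alone.

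**Figure D2:**
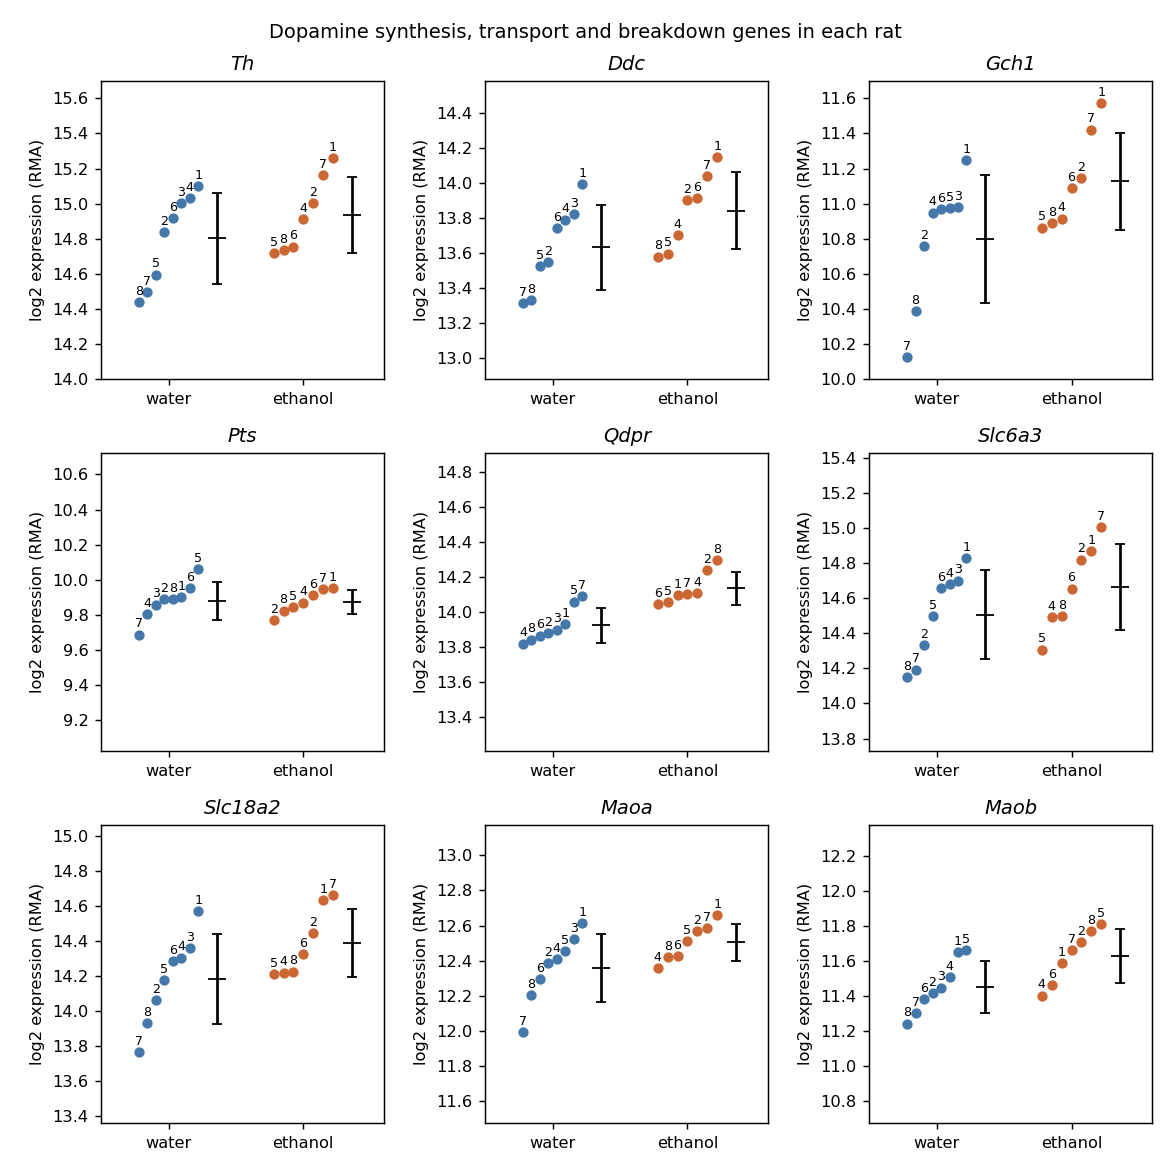
Log2 expression (y axis, each panel spanning the same 1.70 log2 units) of the 9 genes on the brightest probe set of each, in every water (blue) and ethanol (orange) rat. Points are rats in order of their value with the animal number, and bars are the group mean ± SD. Water rats 7 and 8 are lowest in Th, Ddc, Gch1, Slc6a3, Slc18a2 and Maoa, the difference between the means is largest in Gch1, and that of Qdpr is large beside its SD.

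The spread between rats of 1 group was wide for most of these genes. In 10 of the 14 probe sets, all those of Th, Ddc, Gch1, Slc6a3 and Slc18a2, the within-group SD lay between the 93.2 and 98.2 percentile of kept probe sets, 0.23 to 0.36 log2 units against a median of 0.11. Between the lowest and the highest rat, Th differed 1.77-fold and Gch1 (1387221_at) 2.72-fold. A wide spread was not particular to these genes. The GABA neuron markers Gad1, Gad2 and Slc32a1 and the glutamate neuron marker Slc17a6 lay between the 96.4 and 99.9 percentile. Maoa and Maob lay at the 79.5 and 75.6 percentile. Qdpr (SD 0.10, percentile 39.2) and Pts (SD 0.09, percentile 34.0) varied no more than a typical probe set, so that the like differences of Qdpr and Ddc (0.21 each) stood against SDs of 0.10 and 0.23.

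The wide spread was shared. After the group means were removed, 10 of 10 pairs among Th, Ddc, Gch1, Slc6a3 and Slc18a2 were correlated over the 15 arrays, with Pearson r from 0.85 to 0.96 and Spearman rho from 0.85 to 0.97 (permutation test within groups, 100000 draws, adjusted over 36 pairs, adjusted p from 7.20e-05 to 8.10e-04). The lowest adjusted value belongs to the smallest p that these draws can give. Maoa joined them, with r from 0.73 to 0.89 with each of these 5 (adjusted p from 2.80e-04 to 0.00679). Without the 2 arrays farthest from the median (water rats 7 and 8, water rats 1 and 7, or ethanol rat 5 and water rat 8, depending on the gene), r was between 0.80 and 0.97 among the 5 and between 0.62 and 0.80 for Maoa. Within ethanol rats alone r among the 5 ran from 0.85 to 0.97 and within water rats from 0.82 to 0.97. The pattern was carried by rats at both ends: water rat 1 and ethanol rats 1 and 7 were high in all 6 genes, and water rats 7 and 8 low. High r was not particular to the members. Of 10184 other genes, between 50 (for Gch1) and 77 (for Ddc) had r above 0.9 with each of the 5.

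For the other 3 members few pairs passed. Of the 21 pairs that include Pts, Qdpr or Maob, 1 passed, Maoa with Maob (r = 0.64, rho = 0.61, permutation adjusted p = 0.0281 for r and 0.0506 for rho, and r = 0.54 without the 2 arrays farthest from the median). Th and Qdpr had r = -0.31 (rho = -0.12, permutation adjusted p = 0.379), and Gch1 and Qdpr, both in cofactor supply, had r = -0.27 (rho = 0.03, permutation adjusted p = 0.436). Gch1 and Pts had r = 0.61 (rho = 0.59, permutation adjusted p = 0.0612), and r was 0.42 without water rats 1 and 7. Maob differed by group in these values: within the 8 water rats r was 0.81 with Gch1, 0.72 with Slc18a2, 0.71 with Slc6a3, 0.64 with Ddc and 0.52 with Th, and within the 7 ethanol rats it was -0.14, -0.02, -0.15, -0.31 and -0.16. The difference between the groups in r was not tested.

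**Figure D3:**
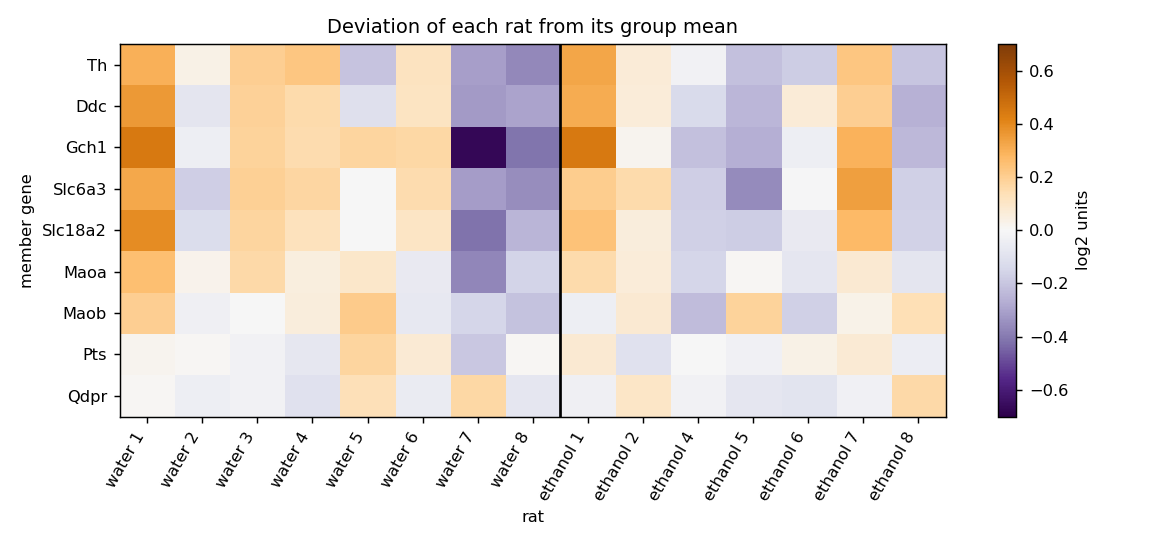
Deviation of each rat from the mean of its group (colour, log2 units; orange higher, purple lower) for the 9 genes (rows) in 8 water and 7 ethanol rats (columns). The top 6 rows rise and fall together across rats, with water rats 7 and 8 low and water rat 1 and ethanol rats 1 and 7 high, while Pts and Qdpr deviate little.

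Different probe sets of 1 gene gave similar orders of rats, water rat 2 on the dimmer Slc6a3 and Slc18a2 probe sets being an exception. Over the 15 arrays, r was 0.90 between the Ddc probe sets (rho = 0.91), 0.84 between those of Gch1 (rho = 0.82), 0.79 between those of Slc6a3 (rho = 0.84) and 0.86 to 0.97 among the 3 of Slc18a2 (rho 0.86 to 0.98). Without the 2 arrays farthest from the median these ran from 0.78 to 0.96. These values describe agreement of measurements, with no test.

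Markers of dopamine neurons other than the members were used to check the tissue. Of 20 such genes, 17 had a probe set with 1 symbol and 14 passed the filter, among them Nr4a2, Foxa2, Ret, Drd2, Slc10a4 and Aldh1a1, while Pitx3, Foxa1 and Chrnb3 were under it. None of the 14 was called in limma, 12 were higher in ethanol rats, against 53.3% of all kept probe sets, and the median difference was 0.17. The others, Sncg (-0.11, within-group SD 0.86) and Sox6 (-0.11, SD 0.24), were lower in ethanol rats. Several markers, such as Slc10a4, Ret and Drd2, varied closely with Ddc, so the 14 are not separate observations. The mean of these markers ran from 10.89 to 11.44 in ethanol and from 10.70 to 11.26 in water rats. With this mean as a covariate the limma difference of Th was -0.0060 (SE 0.07, adjusted p = 0.985) and those of Ddc, Gch1, Slc6a3 and Slc18a2 were between 0.03 and 0.18 on their brightest probe sets, while that of Qdpr was 0.24 (SE 0.05, adjusted p = 0.0416). The marker mean was itself 0.14 higher in ethanol rats and varied with several members. This fit therefore cannot tell the share of dopamine neurons in a sample from the transcript per neuron. Th followed the marker mean closely (r = 0.86, rho = 0.89, permutation adjusted p = 0.00347 over 81 relations), as did Ddc (r = 0.86, rho = 0.87, adjusted p = 0.00283), and Slc6a3 (r = 0.76, adjusted p = 0.0203) and Slc18a2 (r = 0.71, adjusted p = 0.0340) less so. The other 5 members did not pass: Gch1 (r = 0.66, permutation adjusted p = 0.0704) and Maoa (r = 0.43, permutation adjusted p = 0.338), which varied with Th, and Maob (r = -0.15), Pts (0.06) and Qdpr (-0.45).

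Markers of other cells differed widely in how they varied with the members. Of serotonin neuron markers, 3 of 6 passed the filter, Slc6a4, Gata2 and Gata3, with Fev and Htr1a under it. Slc6a4 had a within-group SD of 1.57, against 0.25 for Gata2 and 0.39 for Gata3, so it weighs most in their mean. That mean ran from 7.66 to 9.69 in ethanol and from 7.94 to 10.06 in water rats. The mean was highest in ethanol rat 5 and water rat 5. Noradrenaline markers Dbh, Slc6a2 and Phox2a and the histamine enzyme Hdc were all under the filter. Maob moved with the GABA neuron markers Gad1, Gad2 and Slc32a1 (r = 0.70, rho = 0.69, permutation adjusted p = 0.0340) and against Slc17a6, the vesicular glutamate transporter of midbrain glutamate neurons (r = -0.80, rho = -0.87, permutation adjusted p = 0.00324). These kept r = 0.70 and -0.79 without the 2 arrays farthest from the median of Maob, and Slc17a6 gave -0.76 within ethanol and -0.87 within water rats. With the serotonin, microglia and astrocyte markers Maob had r = 0.61, 0.59 and 0.40 (permutation adjusted p = 0.114, 0.132 and 0.363), which did not pass. Maoa had r = -0.64 with Slc17a6 (permutation adjusted p = 0.132, rho = -0.76), which did not pass either. Of 6 markers of neighbouring nuclei only Chrna3 (mean 7.71) passed the filter, with Pou4f1, Chrnb4, Slc5a7 and Chat under it and Tac2 without a probe set of 1 symbol. Chrna3 varied with Th (r = 0.91, rho = 0.88, permutation adjusted p = 0.00121) and with the 5 genes that go with Th. Whether the Chrna3 signal came from those nuclei was not tested, and 1 gene cannot stand for them. The part of tissue makeup in the members' differences was not tested beyond these values.

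**Figure D4:**
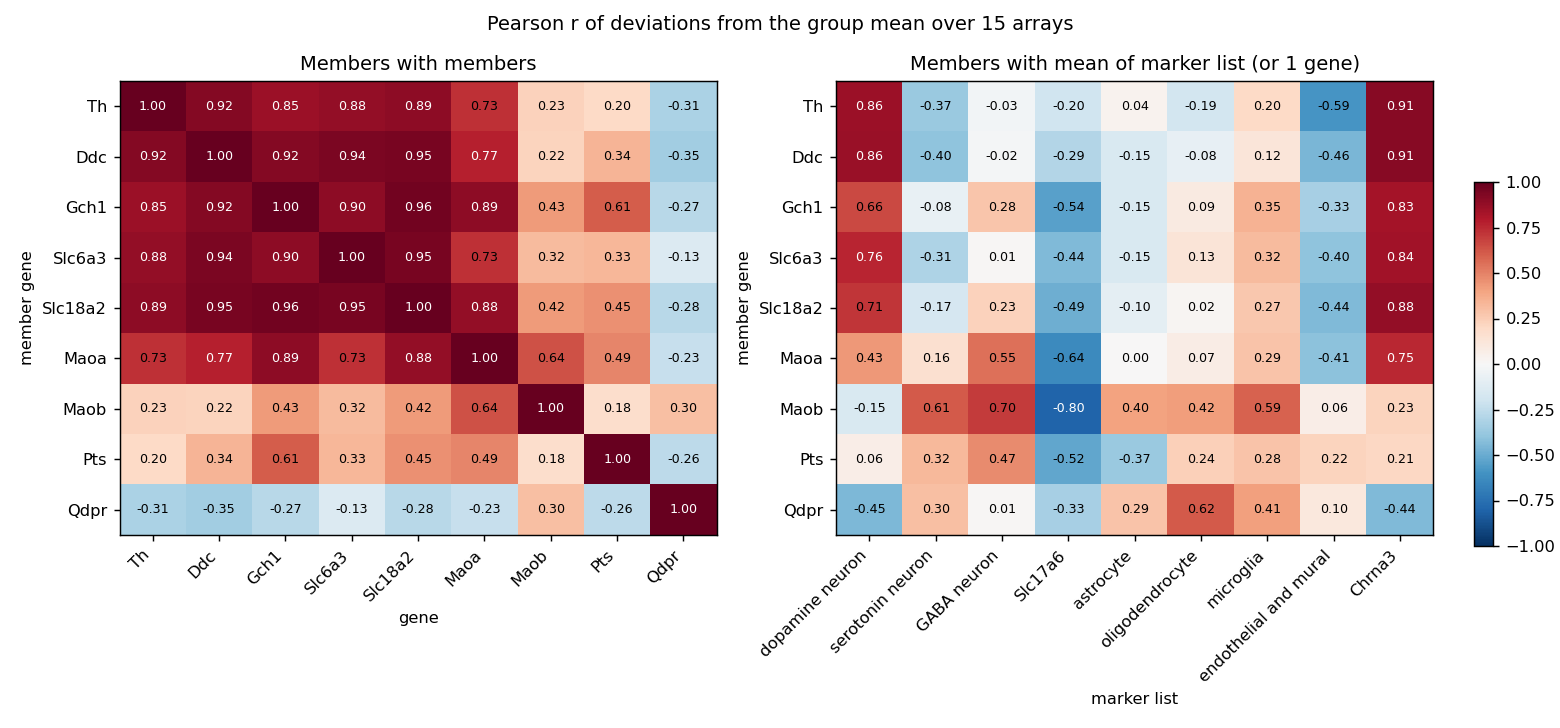
Pearson r of deviations from the group mean over 15 arrays, among the 9 members (left) and between each member and the mean of each marker list (right; glutamate neurons and neighbouring nuclei are represented by Slc17a6 and Chrna3 alone). Red is positive and blue negative. Th, Ddc, Gch1, Slc6a3, Slc18a2 and Maoa form a block with r of at least 0.73, and Maob has r = -0.80 with Slc17a6.

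Qdpr and oligodendrocyte markers are set side by side because they moved apart between the groups. Of 9 kept oligodendrocyte markers 4 fell in ethanol rats (Mal, Cldn11, Ugt8 and Fa2h, limma adjusted p below 0.05) and none rose, with a median of -0.25. Over all kept probe sets 0.542% were called lower and 0.387% higher in ethanol rats. The mean of the 9 oligodendrocyte markers ran from 13.25 to 13.59 in ethanol rats and from 13.55 to 14.02 in water rats. Within groups, Qdpr tended the same way as this mean (r = 0.62, rho = 0.54, permutation p = 0.0204, adjusted p = 0.114 over 81 relations, and r = 0.79 without water rat 7 and ethanol rat 8), which did not pass. Microglia markers moved the other way between the groups: 2 of 8 rose in ethanol rats (Tyrobp and Trem2) and none fell, their mean ran from 9.41 to 9.70 in ethanol and from 9.03 to 9.42 in water rats, and Qdpr had r = 0.41 with it (rho = 0.25, permutation adjusted p = 0.363). With the oligodendrocyte mean as a covariate, which was tried only once these values were known, the limma difference of Qdpr was 0.34 (SE 0.07, adjusted p = 0.0139). The covariate itself differed between the groups, so the 2 terms of this fit share information.

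**Figure D5:**
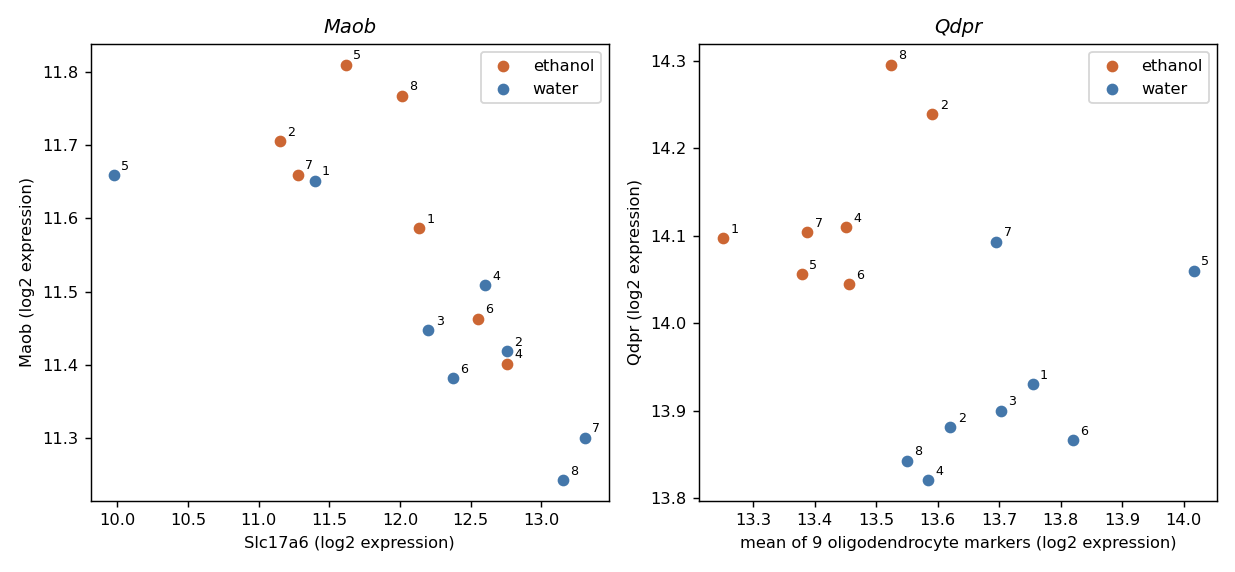
Left, Maob against Slc17a6, and right, Qdpr against the mean of 9 oligodendrocyte markers (all axes log2 expression) in water (blue) and ethanol (orange) rats, with animal numbers. Maob falls as Slc17a6 rises in both groups, and most ethanol rats lie at higher Qdpr and lower marker means than most water rats. The groups overlap on both axes: water rats 5 and 7 lie inside the ethanol range of Qdpr, and the marker mean of ethanol rat 2 is above those of water rats 4 and 8.

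The genes most like each member in their deviations over the 15 arrays were ranked among 10184 genes. They were picked for their high r, so no test is given. Closest to Th were the heparan sulfate proteoglycan Sdc2 (r = 0.98, rho = 0.96), Pdia5 (0.97), Ajap1 (0.96), Ehbp1 (0.95) and Fam167a (0.95). Closest to Ddc were Slc10a4, a vesicle protein of monoamine and cholinergic neurons (r = 0.99, rho = 0.99), Spata6 (0.97), Dlk1 (0.97), the GDNF receptor Ret (0.97) and Grip2 (0.97). For Slc18a2 they were the orphan receptor Gpr161 (r = 0.98), the neurokinin receptor Tacr3 (0.98), Cadps2, which primes dense-core vesicles for release (0.97), Cnksr2 (0.97) and Grb10 (0.97). For Slc6a3 they were Gpr161 (r = 0.97), Cpne7 (0.96), the sodium channel subunit Scn3b (0.96), the cation channel Trpc6 (0.96) and the growth-associated protein Gap43 (0.96). Gch1 was closest to Cnksr2, the sodium channel Scn9a and Ehbp1l1 (r = 0.98 each), Grb10 and Slc18a2 (0.96 each).

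Of 22 dopamine genes ranked (members and markers), the 50 genes most like Ddc held 10, those most like Slc6a3 held 7, those most like Th and Slc18a2 held 5 each, and those most like Gch1 held 4. The lists of Maoa held 2 (Gch1 and Slc18a2), and those of Maob, Pts and Qdpr held 0. Maoa was closest to Celf5 (r = 0.96), Grb10 (0.94), Fbxl17l1 (0.94), Rimbp2 (0.93) and Rab40b (0.93). Maob was closest to Glmn (r = 0.91), Tp53i11 (0.89), Mettl16 (0.88), Fmnl3 (0.87) and Daam1 (0.87). Qdpr was closest to the adhesion protein Cntn2 (r = 0.86, rho = 0.86), Sprtn (0.85), the phosphate transporter Slc20a2 (0.83), the glutathione transferase Gstp1 (0.82) and Hyal2 (0.82). Pts had the weakest partners, Nsmce3 (r = 0.83) and Brd1 (0.83), followed by Tvp23b (0.80), Mageh1 (0.79) and Klhl2 (0.78). Without water rats 5 and 7 these were 0.67, 0.67, 0.47, 0.52 and 0.48.

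The wider pathway gave counts near the background. In 5 lists with 29 genes above the filter, 0 passed in limma, 4 had an unadjusted p below 0.05 and the median difference was 0.05, against 0.929% and 12.1% of all kept probe sets and a median of 0.0062. In the list of biopterin and tyrosine supply 5 of 10 genes passed the filter, and the smallest p values were those of Pcbd2, a recycling enzyme of the cofactor (log2 0.08, adjusted p = 0.397), and Slc3a2 (-0.06, adjusted p = 0.421) and Slc7a5 (-0.07, adjusted p = 0.518), the chains of an amino acid transporter that carries tyrosine. In the list of downstream and alternative breakdown 10 of 11 passed the filter, led by the aldose reductase Akr1b1 (0.12, adjusted p = 0.287), Cyb5b (0.10, adjusted p = 0.440) and the sulfotransferase Sult1a1 (-0.30, adjusted p = 0.470).

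Among vesicle partners, of which 7 of 9 passed the filter, the proton pump subunit Atp6v0a1 (0.08, adjusted p = 0.492), Slc10a4 (0.19, adjusted p = 0.644) and Sv2c (0.13, adjusted p = 0.682) had the smallest p. Among receptors and signalling genes 6 of 11 passed the filter, and the receptor genes Drd1, Drd3, Drd4 and Drd5 were under the filter. Rgs9, which shortens signalling by dopamine receptors, was at 0.21 (SE 0.06, limma adjusted p = 0.118), the cyclase Adcy5 at -0.09 (adjusted p = 0.403) and the autoreceptor Drd2 at 0.20 (adjusted p = 0.571). Rgs9 was called without ethanol rat 4 (0.25, adjusted p = 0.0432). Of the other monoamine enzymes 1 of 7 passed the filter, Hnmt (0.05, adjusted p = 0.794), and Dbh and Pnmt, which take dopamine on to noradrenaline and adrenaline, were under the filter.

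Array quality measures overlapped between the groups. The difference between the 3′ and 5′ ends of control transcripts ran from 0.99 to 1.15 log2 units in ethanol and from 1.05 to 1.20 in water rats. On the first principal component, water rats 7 and 8 stood apart at 21.4 and 21.0, with the other arrays between -13.7 and 12.5. Their array medians (7.739 and 7.731) and their median correlations with the other arrays (0.9881 and 0.9893) were the lowest of all arrays. Whether array quality has a part in the values of these 2 rats was not tested. They were the lowest in Th and had the highest Slc17a6 (13.31 and 13.15). Without both of them, a choice made with the values in view, the limma difference was 0.02 (adjusted p = 0.972) for Th, 0.10 (0.803) for Ddc, 0.15 (0.733) for Gch1, 0.05 (0.933) for Slc6a3, 0.09 (0.809) for Slc18a2, 0.06 (0.818) for Maoa and 0.12 (0.639) for Maob. That of Qdpr was 0.23 (SE 0.05, adjusted p = 0.0556).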

How the data were processed

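Expression was measured on Affymetrix arrays in 15 rats, 1 array per animal, from 25 ng of total RNA amplified in 2 cycles per the labels. The authors deposited log2 values, and the submitters' processing notes name RMA without a version. This method removes shifts common to most transcripts. Array values compress differences of very dim and very bright probe sets. Gene names came from GEO's platform annotation. Of 31042 probe sets that were not controls, 20826 had 1 symbol, 436 several and 9780 none; 0 columns were left unused.

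Probe sets with a mean at or above the 40th percentile (6.94) were kept, 18625 in all, and each was compared two-sided by limma (3.58.1, under R 4.3.3; lmFit and eBayes) without covariates. The fit was tested on simulated data. Differences are ethanol minus water with moderated SE. The number of arrays limits precision (median SE 0.056). Where a gene had several probe sets, correlations used the one with the highest mean. Correlations and figures used Python 3.11.15. The permutation tests redrew deviations within groups.

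The members and lists were chosen with earlier results of these data known. Named genes were every member probe set, the 3 smallest p of each wider list, and the 5 genes most like each member; markers are named where they passed the test or were under the filter, other example markers having been picked with their values known. The relations with marker lists and 3 alternatives (without water rats 7 and 8, without both rats numbered 5, and the oligodendrocyte mean as covariate) were added after seeing the data. Tables of other filters, normalizations, weights, covariates and left-out arrays were computed too.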

Additional observations from a re-analysis of the deposited data

How the results depend on the processing

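Of the 14 probe sets, 12 kept the direction of their difference under every alternative run. Th turned to -0.0060 with the dopamine marker mean as covariate. Pts, near 0 throughout (-0.035 to 0.018 without 1 array), turned to 0.0103 without ethanol rat 2, 0.0012 without ethanol rat 8, 0.018 without water rat 5, 0.0035 without water rat 6, 0.024 without both rats numbered 5 and 0.040 with the oligodendrocyte mean as covariate. The count of members called was 1 in place of 0, always Qdpr, with a trended and robust prior (adjusted p = 0.0377), with array weights (0.0217), with the dopamine marker mean (0.0416) or oligodendrocyte mean (0.0139) as covariate, and without both rats numbered 5 (0.0497); over fits without 1 array it was 0 to 1. Over all 28 alternatives the adjusted p of Qdpr ran from 0.0139 to 0.217.

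Over all probe sets 173 were called, 100 to 180 without 1 array (lowest without ethanol rat 7, and 102 without ethanol rat 8) and 451 with the oligodendrocyte mean as covariate. The count of wider pathway genes called was 1 in place of 0, Rgs9, with the 3′-minus-5′ difference as covariate, and 0 to 1 without 1 array. Correlated pairs numbered 16, 8 within the 7 ethanol arrays, 16 within the 8 water arrays and 13 without the 2 arrays farthest from the median of Th. The labels do not say whether animal numbers pair the samples. Same-numbered rats had correlations of deviations from -0.41 to 0.29, and 1 of 7 ethanol rats correlated best with its own number. So few pairs cannot settle the question. With the number as a replicate block, which leaves out water rat 3, 59 probe sets and 0 members were called. Beside the fit that only left out water rat 3, the block lowered the SE of some members and raised that of others. It was 0.09 against 0.12 for Th and 0.08 against 0.11 for Ddc (1368064_a_at), but 0.06 against 0.05 for both Qdpr and Pts. Signal over background is unknown, so the dim Gch1 probe set is the least certain.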
